A study of Mus musculus with 14 samples.

Results

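Chromatin remodellers and histone methylation enzymes were followed as 1 set of genes in the mouse liver. Members were the genes whose symbol starts with Kmt2, Kmt5, Setd, Kdm, Chd, Smarc or Arid followed by the number or letter of the family, and 67 of the 17552 genes in the table met this rule. They fell into 7 families, with 5 Kmt2, 3 Kmt5, 8 Setd, 18 Kdm, 10 Chd, 13 Smarc and 10 Arid genes. The symbol rule gathers enzymes and partners of different kinds, and not every member modifies histones.

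Livers came from male Apoe-deficient mice, of strain C57BL/6 in the labels and C57BL/6J in the study's methods, which lack apolipoprotein E and accumulate cholesterol-rich lipoproteins. Both groups carried this deficiency and both received a Western diet, with no added compound in the control group and with erythrodiol, a triterpene alcohol of the olive, at 10 mg/kg in the other. Total RNA was pooled from a few mice at a time, and polyadenylated RNA purified from each of the 7 pools per group was sequenced as 1 library. The labels give 8 weeks for the age and for the diet, whereas the methods of the study give a longer feeding, and the values below do not depend on which holds.

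These genes determine how chromatin is marked and packed in every nucleus. Methyltransferases of the Kmt2, Setd and Kmt5 families place methyl groups on lysines of histones H3 and H4, and Kdm enzymes remove them, so that promoters, enhancers, transcribed bodies and silent regions carry different marks. Remodellers of the Smarc and Chd families use ATP to slide or evict nucleosomes, and Arid proteins, named for an AT-rich interaction domain, often sit beside them as subunits that contact DNA. In hepatocytes these complexes work with nuclear receptors and liver transcription factors at the genes of lipid, bile acid and xenobiotic metabolism.

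Each gene had 1 expected count per group, the authors' sum over its 7 libraries, so no spread between pools could be computed for a gene and no test was made. Group totals were 122889032 counts in the control group and 124686047 with erythrodiol, and a ratio on the scale of totals is the erythrodiol count over the control count after division by these totals. Bounds in parentheses after a ratio are 95% counting intervals from the exact conditional binomial. Those after a difference between log2 ratios are 95% intervals from a normal approximation on the counts of both genes. Both kinds cover counting error only. Genes with at least 100 counts in both groups together were kept for ratios, which held for 13291 genes and for 63 of the 67 members. Control libraries ranged from 34856340 to 55244294 clean reads and erythrodiol libraries from 47669656 to 48058606. Between 41.62% and 69.06% of control clean reads mapped to 1 place in the genome, against 64.03% to 68.0% with erythrodiol. The 4 control libraries of lowest unique mapping, replicates 1 to 4, lay under every erythrodiol library. They supplied 55.5% of the read pairs that the control group mapped to genes. Transcripts detected numbered 26483 to 34791 in control libraries and 32370 to 33651 with erythrodiol, and control replicates 1, 3 and 4, with 26483, 30081 and 28632, lay under every erythrodiol library. These 3 supplied 39.4% of the read pairs that the control group mapped to genes. Control replicate 3 also stood apart with 76.66% of its reads mapped anywhere in the genome. Since gene counts are group sums, no ratio could be given without these libraries, and their part in the ratios was not tested. The Apoe transcript was still counted, with 9403 counts in the control and 8293 with erythrodiol, and a count per gene does not show whether the disrupted part was read.

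The hepatocyte markers Alb, Ttr, Apoa1, Cyp3a11, Cps1 and Serpina1c were all present, as the label liver requires, with a summed level 1.01-fold that of the control. All 6 Kupffer cell markers were at least 20% lower with erythrodiol, and their summed level went from 423 to 261 counts per kilobase of transcript and 1000000 counts. Leukocyte markers summed to 17.4 in the control and 11.8 with erythrodiol on the same scale, with 2 of 6 at least 20% lower. Within this sum S100a8 alone went from 8.53 to 3.74, and Ptprc and Ms4a1 had log2 ratios of -0.27 and -0.50. Those of Cd3e, Nkg7 and Cd79a were 0.18, 0.11 and 0.03. Markers of proliferating cells summed to 5.48 and 4.62, and all 6 had a log2 ratio under 0. Endothelial and stellate markers had summed levels 0.944-fold and 0.915-fold those of the control, but their median log2 ratios were above 0. The median was 0.05 for endothelial markers, with a range from -0.26 to 0.34. For stellate markers it was 0.08, with a range from -0.17 to 0.19. The largest term of the endothelial sum was Clec4g, from 33.8 to 28.3, and that of the stellate sum was Dcn, from 141.6 to 126.1. No marker was at 0 in the control. In such bulk tissue, fewer cells of a type and less RNA per cell cannot be told apart, and the part of these shifts in the ratios of the members was not tested.

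The whole set was higher with erythrodiol on the scale of totals. Members together took 230121 counts in the control, or 0.187% of all counts, and 311237 with erythrodiol, or 0.250%. The median member was 1.30-fold higher, a log2 ratio of 0.38 with a range from 0.01 to 0.74, while the median of all genes tested was 1.12-fold higher, a log2 ratio of 0.16. All 63 members tested had a log2 ratio above 0, against 71.2% of all genes. At least 25% higher were 42 of 63 members, against 24.4% of all genes and 41.3% of other genes of at least 4000 bases. At least 20% lower, the same step downward, were 0 members, against 8.89% of all genes. At 1.5-fold the count upward was 1, Arid5b, against 2.55% of all genes, and downward 0, against 3.14%. At 2-fold it was 0 both ways, against 0.218% of all genes upward and 0.549% downward. The counting interval lay above 0 for 58 members, against 54.6% of all genes, and the other 5 were Arid5a, Arid3a, Chd1l, Kdm8 and Smarce1. The common shift of all genes depends on the scaling, since trimmed-mean (TMM) scaling, which centres most genes, lowered every log2 ratio by 0.16. On that scale 56 of 63 members were above 0 against 50.7% of all genes, 14 were at least 25% higher against 6.65%, and 0 were at least 20% lower against 16.3%. Among all genes past these limits, the share that was higher went from 73.3% on totals to 28.9% under TMM scaling.

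**Figure D1:**
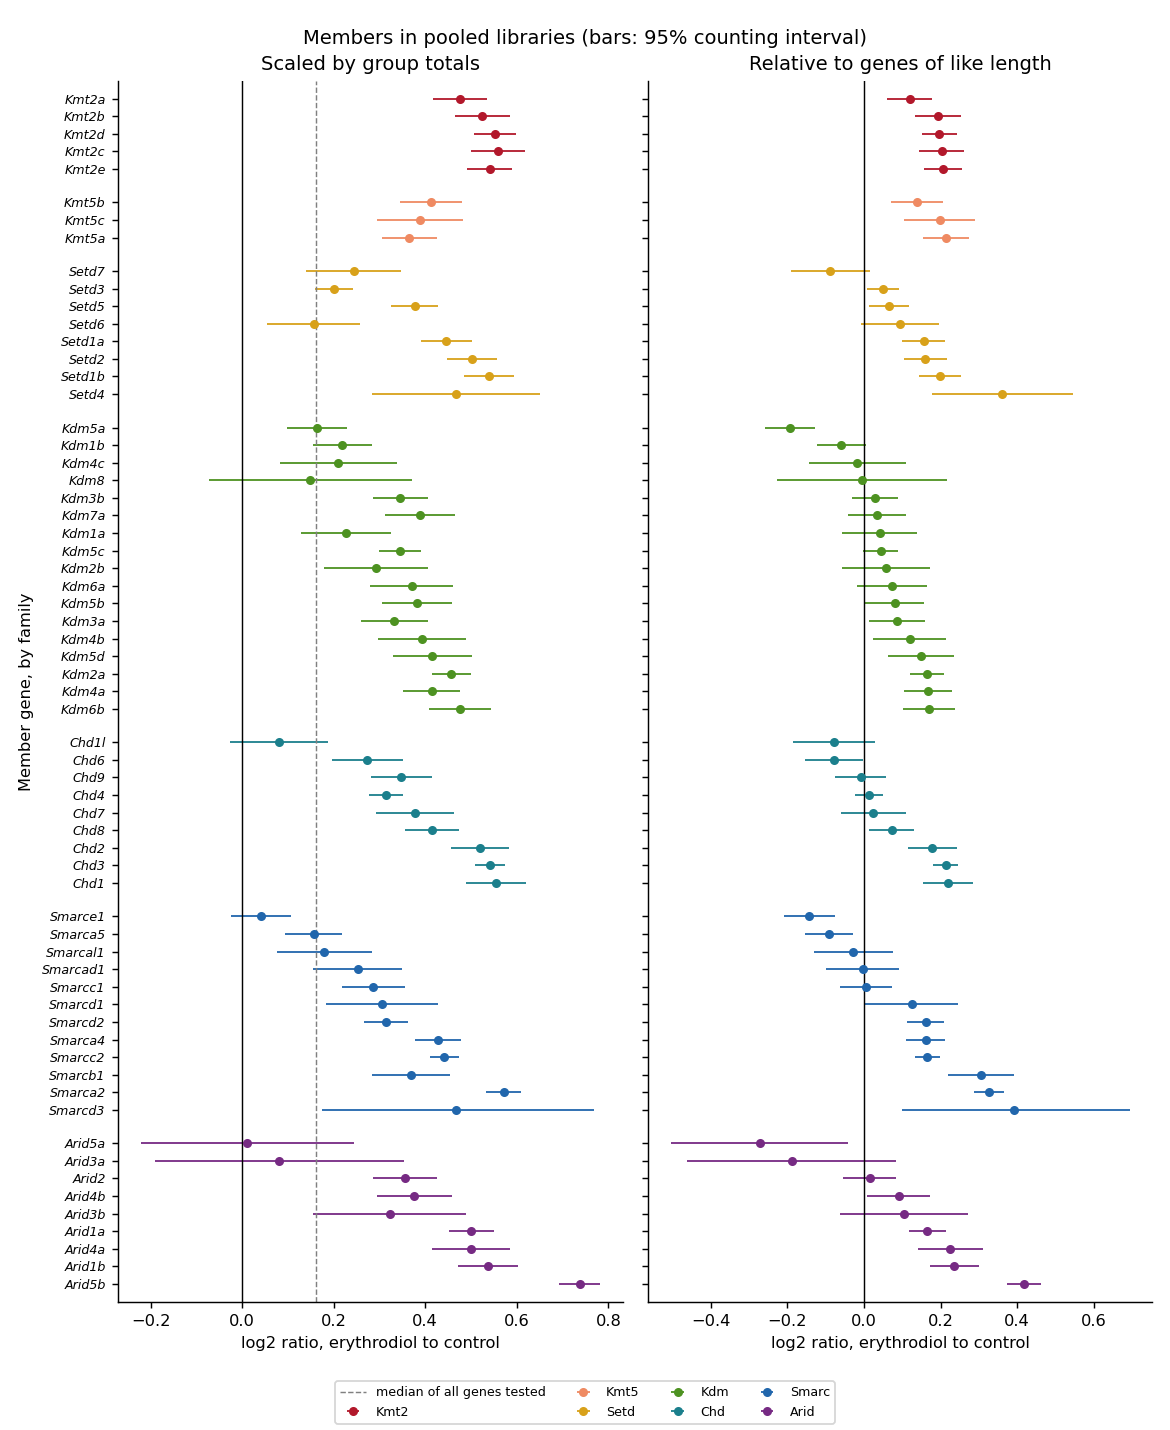
Log2 ratio of erythrodiol to control for the 63 members tested, grouped by family, scaled by group totals (left) and relative to genes of like length (right). Points are pooled values of 7 libraries per group, bars are 95% counting intervals, and the dashed line is the median of all genes tested, 0.16. All points lie above 0 on the left, and 14 lie below 0 on the right.

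Members are long genes, and length went with the ratio across the whole table. Their median transcript length was 5696 bases, against 2856 for all genes, and Pearson's r between log2 ratio and log length was 0.44 across 13291 genes and 0.41 across the 63 members, given as a description of genes that share the same libraries. Other genes under 1000 bases had a median log2 ratio of -0.27, and those of at least 8000 bases one of 0.35. In each length class that held members, their median was above that of the other genes. The 3 members of 1000 to under 2000 bases had a median of 0.37 against 0.04 for the others, and the 13 members of 2000 to under 4000 bases had 0.29 against 0.17. In the class of 4000 to under 8000 bases, which held 34 members, the medians were 0.40 and 0.27, and from 8000 bases upward they were 0.41 for 13 members and 0.35 for the others. What produced the relation with length was not tested.

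**Figure D2:**
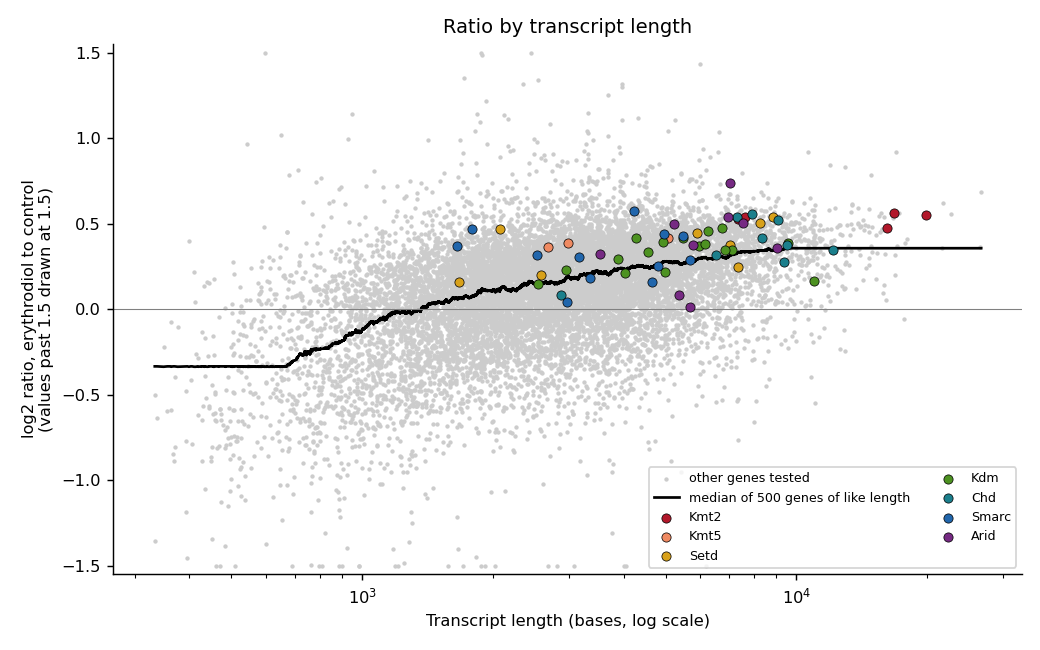
Log2 ratio of erythrodiol to control against transcript length for 13291 genes tested, with the members in colour by family and the line at the running median of the 500 genes nearest in length. The line climbs from short to long genes, and 49 of 63 members lie above it.

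The second scale takes this relation out. From each log2 ratio the median of the 500 genes nearest in length was subtracted, so that 0 means the ratio of a typical gene of the same length, and all genes have a median of 0 by construction. On this like-length scale the median member was at 0.10, or 1.08-fold, with a range from -0.27 to 0.42. Above 0 were 49 of 63 members, against 50.0% of all genes. At least 25% above genes of like length were 4 members, Arid5b, Smarcd3, Setd4 and Smarca2, against 6.12% of all genes, which is a share near the background. At least 20% below were 0 members, against 13.5% of all genes. At 1.5-fold the count was 0 above, against 1.02% of all genes, and 0 below, against 3.52%, and at 2-fold 0 and 0, against 0.158% and 0.474%. The counting interval excluded 0 upward for 37 members, against 31.4% of all genes, and downward for 5, Arid5a, Kdm5a, Smarce1, Smarca5 and Chd6, against 31.3%. Members were spread less widely than all genes tested, with SDs across genes of 0.138 and 0.289. The partners outside the symbol rule, given below, had an SD of 0.169, so a narrow spread was not particular to the members. Members also had more counts, with a median of 7446 in both groups together against 3763 for all genes. The part of this in the spread was not tested.

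**Figure D3:**
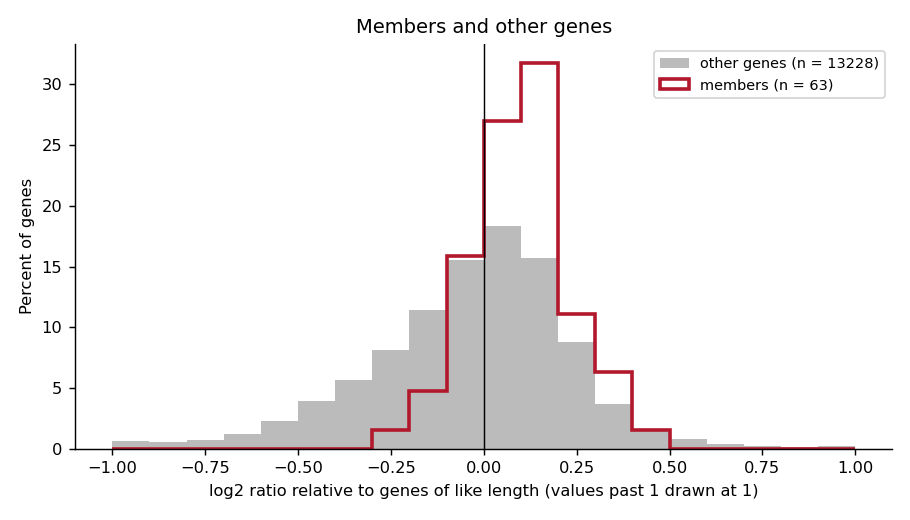
Distribution of the log2 ratio relative to genes of like length in bins of 0.1, as percent of the 63 members (red outline) and of the 13228 other genes tested (grey). The members fill a narrow range from -0.27 to 0.42, and the grey tail of lower values holds no member.

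Members differed widely in level, which was compared only per length, in the unit given above for the markers. The range in the control group was 0.331 to 27.6 with a median of 3.95, close to the median of 4.73 for all genes tested. Setd3, which methylates a histidine of actin, had the highest level, 27.6 in the control and 31.7 with erythrodiol. Next came subunits of the BAF remodeller, with 22.3 and 30.3 for Smarcc2 and 20.3 and 25.2 for Smarcd2. The remodeller Chd3 had 14.1 and 20.5. Of the 4 members under the minimum, Arid3c had 0 and 1 counts, Kdm4d 4 and 10, Chd5 9 and 10 and Smarca1 16 and 25, in control and erythrodiol. The intervals of the ratios of Kdm4d (0.711 to 10.8), Chd5 (0.400 to 3.05) and Smarca1 (0.790 to 3.09) all held 1, so that a difference was not detectable at this depth.

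**Figure D4:**
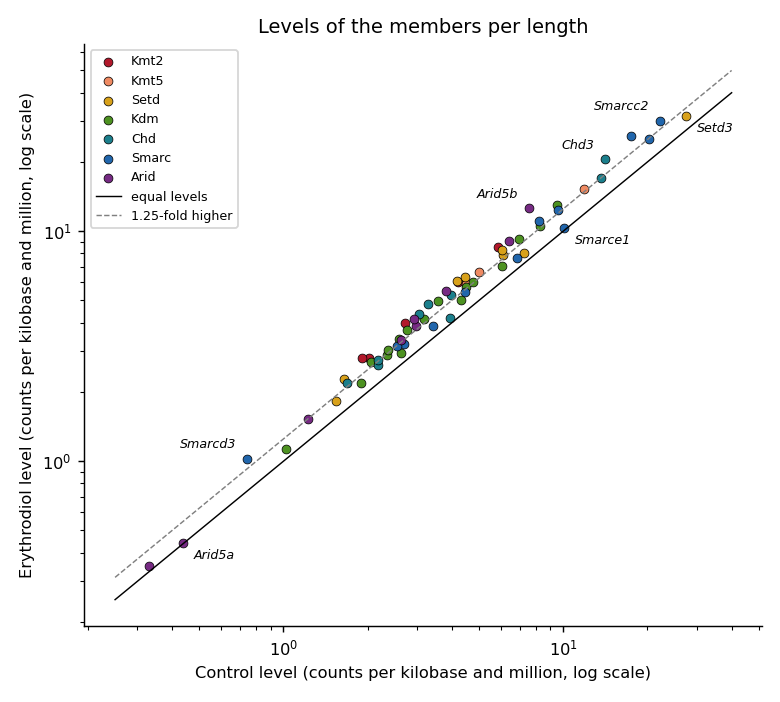
Level of each of the 63 members tested in the control group (horizontal) and the erythrodiol group (vertical), in counts per kilobase and 1000000 counts on log axes, coloured by family. All points lie above the line of equal levels, and Arid5b lies farthest above the dashed line of 25% more.

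Lysine 4 of H3 carries the methyl mark of active promoters and enhancers, and the 6 methyltransferases that work in COMPASS complexes, Kmt2a to Kmt2d with Setd1a and Setd1b, were 1.36-fold to 1.47-fold higher with erythrodiol. Kmt2d, which marks enhancers, went from 6619 to 9849 counts, 1.47-fold (1.42 to 1.51). Its relative Kmt2c went from 3924 to 5866 counts, 1.47-fold (1.41 to 1.53). Both had like-length values of 0.20, and the difference between their log2 ratios was 0.01 (-0.07 to 0.08). Kmt2a, the founding mixed-lineage leukaemia gene, had 4010 and 5658 counts, 1.39-fold (1.34 to 1.45), and the lowest like-length value of the family, 0.12. Kmt2b had 3784 and 5522 counts, 1.44-fold (1.38 to 1.5). Setd1a and Setd1b, the catalytic subunits that place most trimethylated lysine 4, were 1.36-fold (1.31 to 1.42) and 1.45-fold (1.40 to 1.51) higher, from 4396 to 6077 and from 4538 to 6691 counts. Kmt2e, a family member for which no methyltransferase activity is established, had 5462 and 8061 counts, 1.45-fold (1.41 to 1.51). All 5 Kmt2 genes were at least 25% higher on totals, against 24.4% of all genes and 41.3% of other genes of at least 4000 bases, and above 0 on the like-length scale, against 50.0% of all genes. The family medians were 0.54 and 0.20. Among the longest genes the like-length reference levels off, so that Kmt2a, Kmt2c and Kmt2d, of 16191, 16788 and 19866 bases, were compared with shorter genes.

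Demethylases of the same lysine had a lower median. Grouped by mark after the values were seen, the 6 COMPASS methyltransferases had a median like-length value of 0.19, with a range of 0.12 to 0.20, and the 6 lysine 4 demethylases one of 0.04, with a range of -0.19 to 0.15, so that the groups overlapped. Outside COMPASS, the lysine 4 methyltransferases Setd7 and Prdm9, the latter no member by its symbol, were at -0.09 and 0.40. With both included the median of 8 genes was again 0.19, and the range of -0.09 to 0.40 overlapped that of the demethylases. Kdm5a, the retinoblastoma-binding demethylase, had 3551 and 4036 counts, 1.12-fold (1.07 to 1.17), and with -0.19 the lowest like-length value of all Kdm genes. Kdm1b, a flavin-dependent demethylase, had 3714 and 4387 counts and was at -0.06. Kdm1a, its relative in the CoREST complex, had 1559 and 1851 counts, 1.17-fold with a counting interval above 1, and was at 0.04. Kdm5b went from 2407 to 3181 counts and was at 0.08. On the sex chromosomes, Kdm5c on X had 6958 and 8963 counts, 1.27-fold (1.23 to 1.31), and Kdm5d on Y 1871 and 2532 counts, 1.33-fold (1.26 to 1.42). The difference between these log2 ratios was 0.07 (-0.03 to 0.17). The libraries held both copies, as male mice do, with Kdm5d at 0.336 of the level of Kdm5c in the control and 0.353 with erythrodiol.

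**Figure D5:**
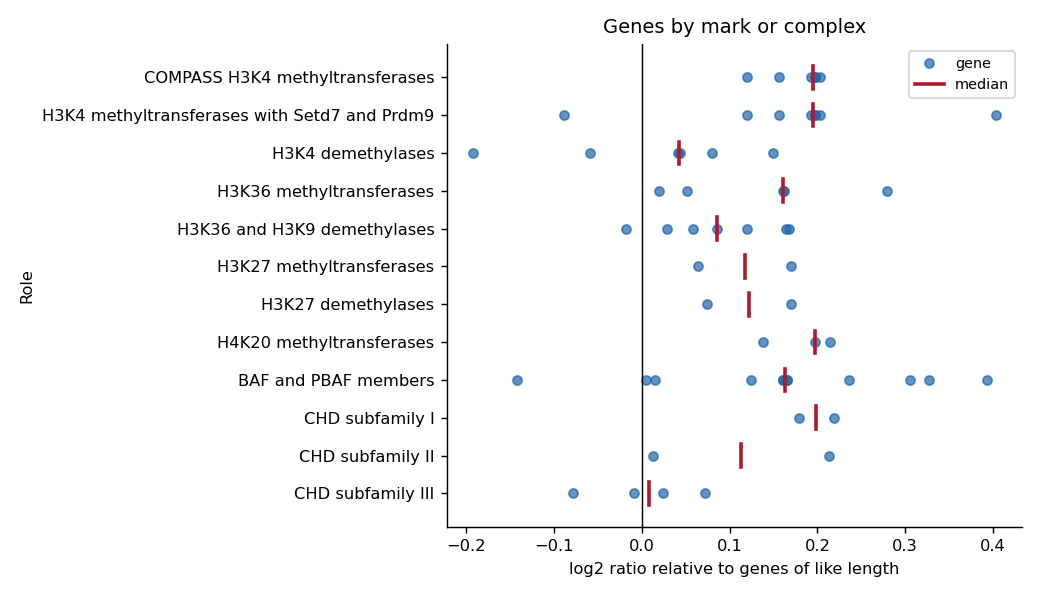
Log2 ratio relative to genes of like length for genes grouped by mark or complex, with 1 point per gene and a red bar at the median of the group. Lysine 4 methyltransferases have a median of 0.19 with or without Setd7 and Prdm9, lysine 4 demethylases have one of 0.04, and the ranges overlap. The methyltransferase groups of H3K4 (second line), H3K36 and H3K27 also hold genes outside the set.

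Other Kdm genes lay between these ends. Kdm6b, an inducible demethylase of H3 lysine 27, had the highest like-length value among Kdm genes, 0.17, with 2962 and 4181 counts, 1.39-fold (1.33 to 1.46). Its X-linked relative Kdm6a had 1734 and 2274 counts, 1.29-fold (1.21 to 1.38), and the difference between them was 0.11 (-0.01 to 0.22). Uty, the Y-linked relative of Kdm6a and no member by its symbol, had 2041 and 2099 counts, 1.01-fold, and a like-length value of -0.25. Kdm4a, which acts on lysines 9 and 36 of H3, had 3627 and 4903 counts, 1.33-fold (1.28 to 1.39), and was at 0.17. Kdm2a, a lysine 36 demethylase that binds CpG islands, had the highest level of the family, 9.48 in the control and 13.0 with erythrodiol, and was 1.37-fold (1.33 to 1.42) higher. Kdm8 had 320 and 360 counts, and its interval of 0.951 to 1.29 held 1. Of the 17 Kdm genes tested, 11 were at least 25% higher on totals, against 24.4% of all genes and 41.3% of other genes of at least 4000 bases. On the like-length scale 13 were above 0, against 50.0% of all genes, and the medians on the scales were 0.35 and 0.06.

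The remaining methyltransferases varied more. Setd2, the enzyme that trimethylates lysine 36 along transcribed genes, went from 4528 to 6508 counts, 1.42-fold (1.36 to 1.47). Setd4 had the third highest like-length value of all members, 0.36, from only 418 and 586 counts, 1.38-fold (1.22 to 1.57). Setd7, which monomethylates lysine 4 and several other proteins, was the only Setd gene under 0 on that scale, at -0.09, with 1389 and 1669 counts. Setd3 and Setd5 were at 0.05 and 0.07. The 3 Kmt5 genes, which methylate lysine 20 of H4, were alike, with 3903 and 5100 counts for Kmt5a, 3110 and 4201 for Kmt5b and 1649 and 2190 for Kmt5c. Their ratios were 1.29-fold (1.24 to 1.34), 1.33-fold (1.27 to 1.40) and 1.31-fold (1.23 to 1.40), and their like-length median was 0.20.

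Among remodellers, the ATPases of the BAF complex, which opens nucleosomes at enhancers, differed from each other beyond counting error. Smarca2 went from 9063 to 13664 counts, 1.49-fold (1.45 to 1.53), and had a like-length value of 0.33. Smarca4, the alternative ATPase, went from 5528 to 7548 counts, 1.35-fold (1.30 to 1.39), with 0.16. The difference between their log2 ratios was 0.14 (0.08 to 0.21), and the level of Smarca2 over that of Smarca4 went from 2.13 to 2.36. The scaffold Smarcc2 went from 13578 to 18712 counts, 1.36-fold (1.33 to 1.39), and its relative Smarcc1 from 3121 to 3862 counts, 1.22-fold (1.16 to 1.28), a difference of 0.16 (0.08 to 0.23). Smarcd2 and Smarcd1 did not differ beyond counting error, with 0.01 (-0.12 to 0.14), and were 1.24-fold (1.20 to 1.29) and 1.24-fold (1.14 to 1.34) higher. Smarcd3 had the highest like-length value of the family, 0.39, but from 163 and 229 counts and with an interval of 1.13 to 1.70 on its 1.38-fold ratio.

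Core subunits of BAF also parted. Smarcb1, a core subunit lost in rhabdoid tumours, had 1936 and 2536 counts, 1.29-fold (1.22 to 1.37), and was at 0.31 on the like-length scale. Smarce1 had 3653 and 3812 counts, 1.03-fold (0.983 to 1.08), and was at -0.14, and the difference between their log2 ratios was 0.33 (0.22 to 0.44). Of 12 BAF and PBAF members by name, 8 were at least 25% higher on totals. The share was 24.4% for all genes and 41.3% for other genes of at least 4000 bases. On the like-length scale 11, all but Smarce1, were above 0, against 50.0% of all genes. Outside BAF, Smarca5, the ATPase of the ISWI complexes that space nucleosomes, had 3917 and 4428 counts, 1.11-fold (1.07 to 1.16), and was at -0.09. Smarcal1, which anneals DNA at stalled replication forks, and Smarcad1, a remodeller of repair and heterochromatin, were at -0.03 and -0.00, with 1403 and 1612 and with 1597 and 1930 counts. These paired comparisons were chosen after the values were seen, and their intervals hold counting error only.

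The Chd genes were read by subfamily, also a grouping made after the values were seen. Chd1 and Chd2, which travel with elongating polymerase, had 3192 and 4755 counts, 1.47-fold (1.40 to 1.54), and 3402 and 4950 counts, 1.43-fold (1.37 to 1.5), with a median like-length value of 0.20. Chd3 and Chd4 are alternative ATPases of the NuRD complex, which joins remodelling to histone deacetylation. Chd3 went from 12648 to 18669 counts, 1.45-fold (1.42 to 1.49), and Chd4 from 10947 to 13809 counts, 1.24-fold (1.21 to 1.28). The difference was 0.23 (0.18 to 0.28), and levels that were near equal in the control, with a ratio of 1.03, stood at 1.21 with erythrodiol. Chd6, Chd7, Chd8 and Chd9, of which Chd7 is mutated in CHARGE syndrome, had a median of 0.01, with ratios of 1.21-fold (1.15 to 1.27), 1.30-fold (1.22 to 1.38), 1.33-fold (1.28 to 1.39) and 1.27-fold (1.22 to 1.33). Their counts were 2503 and 3070, 1977 and 2605, 4052 and 5478, and 3250 and 4196 in that order. Chd1l, activated by poly(ADP-ribose), had 1396 and 1498 counts, 1.06-fold (0.983 to 1.14).

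The Arid family held both ends of the set. Arid5b, a DNA-binding partner of the demethylase Phf2 with a part in fat cell development, went from 6533 to 11050 counts, 1.67-fold (1.62 to 1.72), the highest ratio of all members on totals and on the like-length scale (0.42). Arid5a, which stabilises inflammatory transcripts by binding RNA, had 306 and 313 counts, 1.01-fold (0.858 to 1.18), and the lowest like-length value, -0.27. The level of Arid5b over that of Arid5a went from 17.2 in the control to 28.5 with erythrodiol. Arid1a and Arid1b, alternative subunits of BAF, had 5903 and 8476 and 3249 and 4783 counts, with ratios of 1.42-fold (1.37 to 1.46) and 1.45-fold (1.39 to 1.52) and a difference of 0.04 (-0.04 to 0.12). Arid2, the PBAF counterpart, had 2928 and 3799 counts and was at 0.01. Arid3a had 218 and 234 counts and was at -0.19, with an interval of 0.876 to 1.28 on its 1.06-fold ratio. Of the Arid genes tested, 7 of 9 were at least 25% higher on totals. The share was 24.4% for all genes and 41.3% for other genes of at least 4000 bases. On the like-length scale 1 of 9 was so, against 6.12% of all genes.

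Start regions are shown for Arid5b and Arid5a, the ends of the range of ratios, and for Smarca2, the most abundant of the 4 members at least 25% above genes of like length. Arid5b spans 68092523 to 68279355 of chromosome 10 on GRCm38, Arid5a spans 36307733 to 36324037 of chromosome 1, and Smarca2 spans 26605073 to 26778321 of chromosome 19. RefSeq start regions of GRCm38.p6, from 250 bases before to 50 after an annotated start, were found for 51 of the 67 members, with 67 starts in all. Each is written 5′ to 3′ on the strand of the gene, and capitals mark matches on either strand. The letters searched were GGGCGG for SP1, the ETS core CCGGAAG, the box named CCAAT, the start of a TATA box written TATAAA, the cyclic AMP element TGACGTCA, the E-box CACGTG and the palindrome of NRF1. No match overlaps another in these windows. The Arid5b region lies at chr10:68278677-68278976 on the minus strand, inside the span of the gene, the Arid5a region at chr1:36307483-36307782 on the plus strand and the Smarca2 region at chr19:26604910-26605209 on the plus strand.
Arid5b: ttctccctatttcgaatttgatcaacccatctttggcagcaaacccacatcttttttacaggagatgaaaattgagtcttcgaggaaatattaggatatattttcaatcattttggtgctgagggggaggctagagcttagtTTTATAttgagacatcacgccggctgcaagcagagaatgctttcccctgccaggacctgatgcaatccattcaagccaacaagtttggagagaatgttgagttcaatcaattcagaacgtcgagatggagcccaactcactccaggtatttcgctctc
Arid5a: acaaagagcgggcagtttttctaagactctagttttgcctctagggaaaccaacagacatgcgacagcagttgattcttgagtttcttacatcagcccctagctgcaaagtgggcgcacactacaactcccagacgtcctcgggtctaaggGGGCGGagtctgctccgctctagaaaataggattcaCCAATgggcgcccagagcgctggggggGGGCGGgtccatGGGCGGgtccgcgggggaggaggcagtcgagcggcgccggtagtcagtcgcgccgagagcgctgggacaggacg
Smarca2: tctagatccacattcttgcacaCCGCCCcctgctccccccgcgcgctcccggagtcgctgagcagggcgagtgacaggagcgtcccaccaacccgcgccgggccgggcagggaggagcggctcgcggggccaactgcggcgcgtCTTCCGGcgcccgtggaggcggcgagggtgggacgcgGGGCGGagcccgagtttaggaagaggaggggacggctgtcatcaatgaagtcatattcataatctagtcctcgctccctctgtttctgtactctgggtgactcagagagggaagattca

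These 3 windows were unlike each other in composition. Arid5b had 7 CG dinucleotides, 43.3% G and C and 1 match to TATAAA on the opposite strand, whereas Arid5a had 22 and 60.3% and Smarca2 29 and 65.7%. Over all 67 windows of members the median was 26 CG dinucleotides and 63.7% G and C, against 19 and 60.0% in the windows of genes tested and 7 and 52.7% in all 32851 windows. GGGCGG was found in 71.6% of member windows, 59.5% of windows of genes tested and 35.7% of all, and TATAAA in 4.48%, 7.74% and 13.6%. CCGGAAG was in 13.4%, 16.2% and 8.86%, CCAAT in 37.3%, 37.6% and 37.4%, and CACGTG in 2.99%, 9.52% and 7.15%. Neither the NRF1 motif nor TGACGTCA was in a member window, against 1.90% and 2.77% of windows of genes tested and 0.971% and 1.79% of all. A match is a description of letters and says nothing of binding.

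Partners outside the symbol rule were read from 8 lists, which together held 109 genes, of which 107 passed the minimum. Their median like-length value was 0.09, with 72 above 0, against 50.0% of all genes, and 44 were at least 25% higher on totals, against 24.4%. On the like-length scale 5 were at least 25% higher, against 6.12% of all genes, and 4 at least 20% lower, against 13.5%. Subunits of the COMPASS complexes, which carry the lysine 4 methyltransferases, had a median of 0.11 with 9 of 12 above 0, from Wdr5 at -0.11 to Men1 at 0.17. Only some of them are common to these complexes, namely Wdr5, Ash2l, Rbbp5 and Dpy30, at -0.11, 0.15, 0.16 and 0.06. Other subunits of BAF and PBAF had 0.14 with 14 of 17 above 0, from Bcl11b at -0.40 on 53 and 50 counts to Dpf3 at 0.36 on 76 and 107. Other lysine methyltransferases had 0.13 with 14 of 19 above 0. Here Ash1l, a lysine 36 enzyme, was at 0.16, Dot1l, the lysine 79 enzyme, at 0.13, Nsd1 at 0.05 and the lysine 9 enzyme Ehmt2 at -0.03, while the ends were Smyd1 at -0.19 and Prdm9 at 0.40. Partners of ISWI had 0.07 with 8 of 9 above 0, from Chrac1 at -0.11 to Pole3 at 0.36. The list of the remodellers INO80, SRCAP and TIP60 also held Hells, Atrx, Hltf, Ttf2, Ercc6 and Rad54l, ATPases outside these complexes. This list had 0.09 with 11 of 17 above 0, from Actr6 at -0.33 to Ercc6 at 0.28. All subunits of the complexes but Actr6 were above 0, and all the other ATPases but Ercc6 were under 0.

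The lists of Polycomb repressive complex 2 and of NuRD partners had medians near 0, and they share Rbbp4 and Rbbp7, both at -0.13. Polycomb repressive complex 2, which methylates lysine 27 of H3, had a median like-length value of -0.04 with 5 of 12 above 0. Its catalytic subunits Ezh1 and Ezh2 had 1878 and 2358 and 427 and 542 counts and were at 0.06 and 0.17, and its ends were Mtf2 at -0.29 and Phf1 at 0.24. Partners of Chd3 and Chd4 in NuRD had -0.01 with 5 of 12 above 0, with the deacetylase Hdac2 lowest at -0.39, on 2695 and 2260 counts, and Cdk2ap1 highest at 0.26. Other genes with a JmjC domain, the fold of most demethylases, had 0.04 with 6 of 11 above 0, from Hr at -0.38 to Phf8 at 0.27. The markers of proliferating cells, which were lower as given above, had a like-length median of -0.46, and whether they bear on these complexes was not tested.

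Annotation to the nucleus was common to most members and to many genes outside the set. By the deposited annotation 50 of 63 members, or 79.4%, belong to the nucleus, against 32.1% of all genes tested, and 49 carry a process named for chromatin or histones. The 470 other genes with such a process had a median like-length value of 0.05, with 58.3% above 0. The 4216 other genes annotated to the nucleus had 0.02 with 53.5%, and the 9012 others without that annotation -0.01 with 48.2%. For the members it was 0.10 with 77.8%. This grouping was chosen after the values were seen.

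Transcript structure gave a readout that the rule did not use. Over all 14 libraries pooled, the authors added coding transcripts that the reference lacked, and 43 of the 63 members tested, or 68.3%, had at least 1, against 35.8% of all genes tested. Among the 500 other genes of like length the mean share was 43.4%, and among those of like length and count 50.4%. The members had 113 added transcripts in all, with 2 to 61 exons and a median of 24, and the most were 12 in Setd5 and 10 each in Kmt2c and Kdm2b. Members with an added transcript had a median like-length value of 0.12, and the 20 without had 0.04. Added transcripts change the reference on which reads were counted, and their part in the ratios was not tested.

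Of the authors' 16 filtered differences in splicing, 0 lay in a member. With so few events beside the 17552 genes of the table, 0 among 67 members says little about the set. Among these events, 1 lay in a partner of ISWI, Baz2b, a bromodomain protein, and concerned a skipped exon at chr2:59983782-59983970. Reads of the control group gave 34 counts for inclusion and 5 for skipping, and those of the erythrodiol group 39 and 21, so that 12.8% and 35.0% of counts were for skipping. Skipping was at 0 in 3 of 7 control libraries and in 0 of 7 erythrodiol libraries. This event was among those the authors chose for its difference, so it is given as a description.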

How the data were processed

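Liver RNA of 7 control and 7 erythrodiol pools was sequenced on BGISEQ-500, and groups came from the labels. The authors mapped clean reads to the mouse genome with HISAT, assembled transcripts with StringTie and Cuffcompare of Cufflinks, scored coding potential with CPC, added coding transcripts to the reference, mapped reads to it with Bowtie2 and estimated expected counts per gene with RSEM. Versions are not given in the sources used here. The authors deposited 1 expected count per gene and group, summed over the 7 libraries and not normalized. Per library, the deposited statistics give counts of reads, genes and transcripts and mapping rates in percent, and the deposited rMATS events give inclusion and skipping counts. The authors' log2 ratio, p-value and q-value of erythrodiol against control were not used. Coordinates are those of GRCm38.

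Expected counts were divided by the column totals, left unrounded in ratios and rounded for the intervals. The reference for length was the median log2 ratio of the 500 nearest genes (250 shorter, 250 longer) among genes with at least 100 counts. At the ends of the length range the window stopped at the last gene and was not even. With 1 value per group there was no test, and replicates could not be left out. TMM factors came from edgeR. The code was tested on simulated data. Members, lists of partners and markers were chosen with earlier results of these data known, and groups by mark, paired genes, the annotation groups and a nuclear reference after the values were seen. Named genes were all Kmt2, Chd and Smarc genes, the 2 highest and 2 lowest of each other family by like-length ratio and its most abundant member, members past 1.5-fold or under the minimum, the ends of each list of partners, and Ezh1, Ezh2, Dot1l, Ehmt2, Ash1l and Nsd1. Other named genes were chosen after their values were seen. Alternatives were TMM scaling, minimums of 10 and 1000 counts, a pseudocount of 1, folds of 1.5 and 2, and other references for length. Software was R 4.3.3 with edgeR 4.0.16, and matplotlib 3.10.9, scipy 1.17.1, pandas 2.3.3 and numpy 2.4.6 under Python 3.11.15. The 5 records without a gene symbol stayed in the totals.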

Additional observations from a re-analysis of the deposited data

Results flagged for a closer look

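Control replicate 3 stood apart from the other 6 control libraries in its mapping. Of its clean reads, 76.66% mapped to the genome, where the group median was 94.41%, and the gap to the nearest library was 0.852 of the range of the group. To the genes 64.33% of its clean reads mapped, against a group median of 75.3%, with a gap of 0.588 of the range. The limit for naming such a library is passed by chance in about 1 in 20 groups. This library is part of the control sum of every member, and its share in the ratios was not tested.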

How the results depend on the processing

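No paired analysis was possible because gene counts are sums over 7 libraries, and for the same reason no replicate could be left out. Of 151 values recomputed for the set, its families and its counts, 136 stayed within a limit, 15 moved further and 0 changed sign. For counts the limit was 1.5 times. For a median it was the median half-width of the counting intervals of its single genes, 0.07 for the members. The counting error of a median itself was not computed. Under TMM scaling the median log2 ratio of the members on totals was 0.22, with 0.38 for Kmt2, 0.23 for Kmt5, 0.25 for Setd, 0.19 for Kdm, 0.22 for Chd, 0.15 for Smarc and 0.22 for Arid, and 14 members were at least 25% higher. That scaling takes 0.16 from every log2 ratio by construction. With a minimum of 1000 counts the Arid median on totals was 0.50, and 1 member was at least 25% above genes of like length, Arid5b, with Smarca2 at 0.31 and Setd4 at 0.32 against the changed reference and Smarcd3 under the minimum. At 1.5-fold, 1 member was higher on totals and 0 on the like-length scale, and at 2-fold 0 and 0. The like-length median of the members ranged from 0.08 to 0.12 over 9 settings and that of Chd from 0.01 to 0.05. With genes nearest in length and count, Arid5b was at 0.37, Smarca2 at 0.28, Chd4 at -0.04 and Kdm5c at -0.01. Single pools, batches and spread between animals could not be examined.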
